A study of Mus musculus with 18 samples.

Results

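Skeletal muscle loses mass with age, and the genes of the atrophy programme were followed here in the hindlimb muscle of mice at 2, 20 and 28 months. The 10 genes were taken by symbol from a muscle RNA-seq table of 23420 genes. They were 5 ubiquitin ligase genes of muscle wasting (Fbxo32, Trim63, Fbxo30, Fbxo31 and Cblb), 3 FoxO factors (Foxo1, Foxo3 and Foxo4) and 2 FoxO-responsive inhibitors of mTORC1 (Ddit4 and Sesn1). All 10 had a row in the table and passed the filter on low values, a mean normalized count of at least 10 over the libraries, with at least 250 reads in every library.

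The mice were C57BL/6J females for which no transgene or treatment is stated, and age was the only stated difference between the groups. RNA was made from whole powdered hindlimb muscle of 3 mice per age, 1 library per mouse. DNA fragments that carry methyl groups were pulled down with the methyl-CpG-binding domain of a protein, a method named MBD-seq, from muscle and from spleen T cells, as 1 pool of 3 mice for each tissue and age. A powdered limb holds muscles of unlike fibre type and their vessels, fat and connective tissue, and in such bulk RNA fewer cells of a type and less RNA per cell cannot be told apart.

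When insulin and IGF1 signalling is high, the kinase AKT phosphorylates FoxO factors and keeps them out of the nucleus. When it is low, as in fasting, disuse or glucocorticoid excess, nuclear FoxO factors switch on the atrophy genes. Their best-known targets in muscle are Fbxo32 (atrogin-1 or MAFbx) and Trim63 (MuRF1), ubiquitin ligases that mark muscle proteins for the proteasome. The same signalling arm feeds mTORC1, the kinase complex that drives protein synthesis, so that protein breakdown and protein synthesis are set together.

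The RNA libraries held 20203833 to 71115244 reads on genes. The libraries numbered 3 stood apart at each age, with 29.6 to 32.5% of their reads in the 10 most abundant genes against 43.1 to 48.4% in the other 6 libraries. The differences called for the 10 genes are therefore also given for libraries 1 and 2 alone. The 2-month library 1 carried RNA of marrow granulocyte genes (a summed normalized count of 4391, against 61.4 and 67.0 in the other 2-month libraries), of bone and cartilage genes (1955 against 75.8 and 104) and of red blood cells (8982 against 1690 and 1952), and results were also computed without it. The bone and cartilage sum was 6.75 to 29.9 at 20 months and 6.91 to 15.1 at 28 months, so every 2-month library lay above all older ones. Leaving out the 2-month library 1 does not remove this difference between ages. The skeletal muscle markers were present in all 9 libraries.

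The mean level was highest at 20 months in 8 of the 10 genes. From 2 to 20 months 7 of the 10 rose at an adjusted p under 0.05, and none fell. The share of all 13178 genes tested that rose by this rule was 9.42%, 7.13% fell, and 16.6% were called in either direction. With the study's thresholds of a fold over 2 and an unadjusted p under 0.05, 2 of the 10 were called (Fbxo32 and Foxo1, background 5.17%). The study applied this fold rule to DESeq2 results. Here it was applied to the limma fit, so the counts are not those of the study. From 2 to 28 months, 3 rose and 2 fell, where the background was 7.53% higher and 6.24% lower (13.8% in all). The fold rule called 0 of the 10 there (5.14%). From 20 to 28 months only Ddit4 passed, as 1 of 50 genes called (0.379%, with 0.212% higher and 0.167% lower), and by the fold rule as well (1.31%).

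The libraries themselves were also compared. From 2 to 20 months the 2 groups of libraries did not overlap in 8 of the 10 genes (7 higher, 1 lower), where 36% of all genes were separated, 18.4% higher and 17.6% lower. From 2 to 28 months it was 6 of the 10 (4 higher, 2 lower), against 30.3%, of which 15.3% were higher and 15% lower. From 20 to 28 months all 20-month libraries lay above all 28-month libraries for 8 of the 10 genes, while 8.84% of all genes were separated in this direction, 8.63% in the other and 17.5% in all. Each pair of comparisons shares the libraries of 1 age, so the 3 are not independent.

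**Figure D1:**
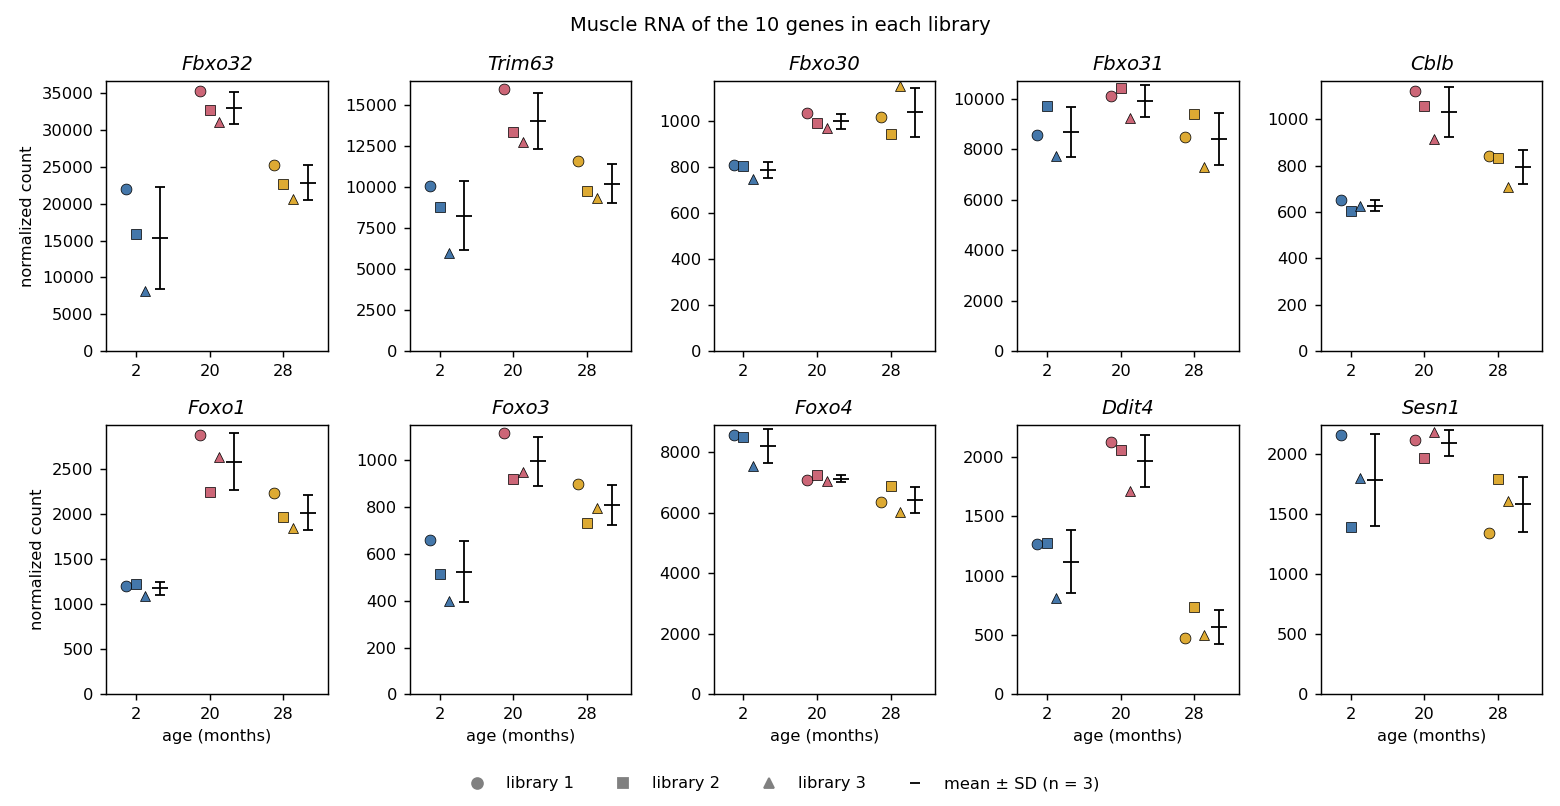
Normalized count (y axis, from 0, a scale of its own for each gene) of the 10 genes in each muscle library at 2, 20 and 28 months (x axis). Circles, squares and triangles are libraries 1, 2 and 3, and bars are the mean ± SD of 3 libraries. The 20-month points of Fbxo32, Trim63, Cblb, Foxo1, Foxo3 and Ddit4 lie above all points of both other ages, and the 28-month points of Ddit4 lie below all others.

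Fbxo32 was the ligase gene with the largest change. Its normalized counts at 2 months were 21981, 15914 and 8130.4 in libraries 1, 2 and 3. The 20-month values were 35310.2, 32709.5 and 31047, and those of 28 months 25327, 22683 and 20593. All 20-month values lay above all others, whereas the 28-month range began below the highest 2-month value. The 2-month libraries were spread most, with a coefficient of variation of 45.3% against 6.51% at 20 months and 10.4% at 28 months.

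The mean of Fbxo32 was 15342 ± 6943 (SD, n = 3) at 2 months, 33022 ± 2149 at 20 months and 22868 ± 2373 at 28 months. From 2 to 20 months the log2 fold change was 1.22 (SE 0.253, 2.33-fold, adjusted p = 0.00674). It was 0.86 over libraries 1 and 2 and 1.93 for library 3, and 1.54 without the 2-month library 1. At 28 months it was 0.69 above 2 months (SE 0.253, adjusted p = 0.0938), which did not pass. Over libraries 1 and 2 this 28-month difference was 0.36, and for library 3 it was 1.34. It was 1.00 and passed without the 2-month library 1 (adjusted p = 0.0137), and 0.28 without the 2-month library 3 (adjusted p = 0.200). With a term for the libraries numbered 3 it passed as well (adjusted p = 0.0276), and over the 21 alternatives the adjusted p ran from 0.0137 to 0.246, with 4 under 0.05. The difference between 28 and 20 months was -0.53 (95% confidence interval -1.08 to 0.02, adjusted p = 0.483), and it passed when these 2 ages were fitted alone (adjusted p = 0.0381).

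Trim63 followed the same course at a smaller size. The gene lies on the plus strand of chromosome 4 (chr4:134315120-134329629, GRCm38) with 9 exons. Its normalized counts were 10041, 8781 and 5959.5 at 2 months, 15963, 13358 and 12772 at 20 months, and 11575, 9732 and 9314 at 28 months. The 20-month libraries were the highest of the 9, and the ranges at 2 and 28 months overlapped.

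The mean of Trim63 rose from 8261 ± 2090.0 (SD, n = 3) at 2 months to 14031 ± 1698 at 20 months, a log2 fold change of 0.79 (SE 0.161, 1.73-fold, adjusted p = 0.00601). The change was 0.64 over libraries 1 and 2 and 1.10 for library 3. At 28 months the mean was 10207 ± 1203, a log2 difference of 0.33 from 2 months (adjusted p = 0.199) and of -0.46 from 20 months (SE 0.161, adjusted p = 0.325). The difference from 2 months was 0.18 over libraries 1 and 2, 0.64 for library 3 and 0.11 without the 2-month library 3. At each age library 1 was highest and library 3 lowest for both Fbxo32 and Trim63.

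The Trim63 promoter is shown because a binding motif of FoxO factors lies in it. Its RefSeq sequence (GRCm38.p6, chr4:134314870-134315119, plus strand) covers the 250 bases before the start of the gene and holds 4 CpG dinucleotides, in capitals, where the median of 32851 mouse promoters was 6.
Trim63, 250 bases before the start: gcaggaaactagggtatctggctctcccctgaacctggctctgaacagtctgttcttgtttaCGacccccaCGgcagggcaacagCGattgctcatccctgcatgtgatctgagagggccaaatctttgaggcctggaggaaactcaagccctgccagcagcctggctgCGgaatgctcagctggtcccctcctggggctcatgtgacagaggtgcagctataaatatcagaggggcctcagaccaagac
A stretch of it (chr4:134314900-134314959) is repeated with 2 motif matches in capitals, and the stretch next to the start (chr4:134315070-134315119) with 1 more.
Trim63, -220 to -161 from the start: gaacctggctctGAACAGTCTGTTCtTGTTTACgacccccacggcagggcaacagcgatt
Trim63, -50 to -1 from the start: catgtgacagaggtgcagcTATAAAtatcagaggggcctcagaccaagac
The match TGTTTAC is the FoxO core motif GTAAACA on the minus strand, at -194 to -188, and 3.17% of promoters of this length held it on either strand. The match 1 base upstream, GAACAGTCTGTTC at -208 to -196, is a palindromic pair of glucocorticoid receptor half-sites in a relaxed form, with only the letters ACA and TGT and the outer G and C fixed, and 0.387% of promoters held this form. It was searched for after the sequence had been read. The full glucocorticoid response element of 15 bases had no match here and was held by 0.00913% of promoters. The TATA box TATAAA lies at -31 to -26 and was held by 12.4% of promoters. None of the other 7 genes with a promoter in the table (Fbxo30, Fbxo31, Cblb, Foxo1, Foxo3, Ddit4 and Sesn1) had a match to any of these motifs in its window, and Fbxo32 and Foxo4 were not in the table. A match describes letters and not a bound site.

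Cblb codes for a ligase that targets IRS1, an adaptor of the insulin receptor, in unloaded muscle. Its normalized counts were 651, 606 and 627 at 2 months, 1123, 1059.6 and 915 at 20 months, and 843, 834 and 709.6 at 28 months. The 3 ages did not overlap at all, with 20 months highest and 2 months lowest. The rise to 20 months was 0.71 on the log2 scale (SE 0.108, 1.64-fold, adjusted p = 0.000983), and 0.80 over libraries 1 and 2. At 28 months Cblb was 0.34 above 2 months (SE 0.108, adjusted p = 0.0566) and 0.37 below 20 months (adjusted p = 0.197), and neither passed. The difference from 2 months passed under 4 of the 21 alternatives, among them a term for the libraries numbered 3 (adjusted p = 0.0234), DESeq2 (0.0418) and without the 28-month library 3 (0.0452).

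Fbxo30, also called MUSA1, codes for an F-box ligase of atrophy that is held down by BMP signalling. Its counts at 2 months were 809, 807 and 748, at 20 months 1037, 992 and 973, and at 28 months 1017, 943 and 1155. The older libraries all lay above the 2-month ones, and 20 and 28 months overlapped. The log2 fold change was 0.34 at 20 months (SE 0.0965, adjusted p = 0.0290) and 0.39 at 28 months (SE 0.0965, adjusted p = 0.0177). Both calls were lost without the libraries numbered 3 (adjusted p = 0.0979 and 0.192), where the changes were 0.33 and 0.28. The 20-month call held under 14 of the 21 alternatives and was also lost on rescaling to the same sum (adjusted p = 0.490) and without the 2-month library 1 or 3 or any 1 of the 20-month libraries (0.0563 to 0.111). The 28-month call held under 16 and was also lost on rescaling (0.405) and without the 2-month library 3 or the 28-month library 1 or 3 (0.0510 to 0.0759).

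Fbxo31 codes for a related F-box protein. Its normalized counts were 8561, 9718 and 7744 at 2 months, 10104, 10434 and 9227 at 20 months, and 8499, 9401 and 7317 at 28 months. No pair of ages was separated. The log2 difference was 0.20 at 20 months (95% confidence interval -0.03 to 0.43, adjusted p = 0.224) and -0.05 at 28 months (-0.28 to 0.18, adjusted p = 0.813).

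**Figure D2:**
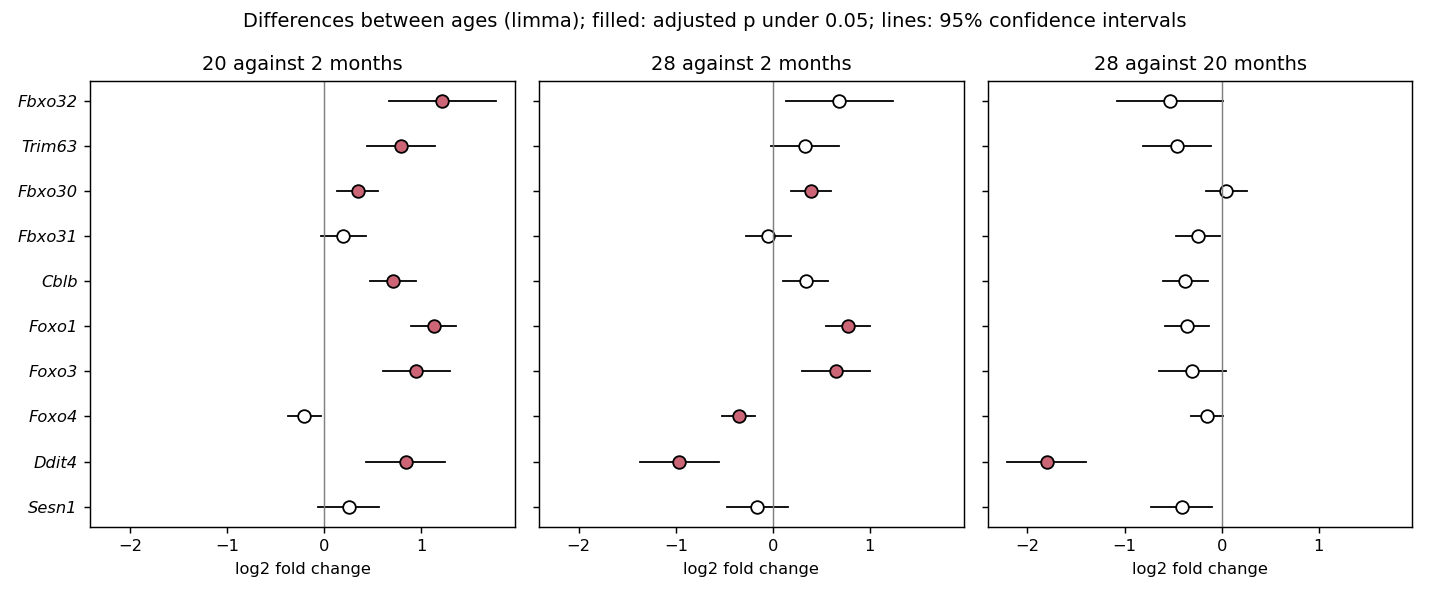
Log2 fold change (x axis) of each gene (y axis) in the 3 comparisons of ages, older minus younger, from 9 libraries. Points are limma estimates, lines their 95% confidence intervals, and filled points have an adjusted p under 0.05. In the left panel 7 points are filled, all right of 0, and in the right panel Ddit4 alone is filled, at -1.80.

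Among the FoxO genes, Foxo1 and Foxo3 rose while Foxo4 fell. Foxo1 had the smallest p of the 10 genes from 2 to 20 months and ranked 35 of 13178 by p. Its normalized counts were 1204, 1225 and 1092 at 2 months, 2871, 2237 and 2624 at 20 months, and 2224, 1969 and 1842 at 28 months. The 3 ages were again fully separated, in the order 20, 28 and 2 months.

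The Foxo1 mean was 1174 ± 71.1 (SD, n = 3) at 2 months, 2577 ± 319 at 20 months and 2012 ± 194 at 28 months. Against 2 months, its log2 fold change was 1.13 at 20 months (SE 0.106, 2.19-fold, adjusted p = 3.93e-05) and 0.77 at 28 months (SE 0.106, 1.71-fold, adjusted p = 0.000485). Over libraries 1 and 2 the values were 1.06 and 0.79. Both calls held under each of the 21 alternatives of processing. From 20 to 28 months the difference was -0.35 (SE 0.106, adjusted p = 0.220).

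Foxo3 is the FoxO factor best known for driving Fbxo32 and the autophagy genes. It had 662, 513 and 399.9 normalized counts at 2 months, 1117, 921 and 952 at 20 months, and 899, 732 and 796 at 28 months. All older libraries exceeded all 2-month libraries, and as for Fbxo32 and Trim63 the 2-month library 1 was the highest of its group. The rise was 0.95 at 20 months (SE 0.160, 1.93-fold, adjusted p = 0.00200) and 0.65 at 28 months (SE 0.160, 1.57-fold, adjusted p = 0.0184). Over libraries 1 and 2 alone it was 0.80 and 0.48. The 28-month call held under 16 of the 21 alternatives. It was lost without the libraries numbered 3 (adjusted p = 0.142), on rescaling to the same sum (0.0682) and without the 2-month library 3 or the 28-month library 1 or 3 (0.0523 to 0.0815).

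Foxo4, on the X chromosome, had 8568, 8492 and 7555 normalized counts at 2 months, 7071, 7250.2 and 7041 at 20 months, and 6359, 6883 and 6019 at 28 months. The ages were separated in declining order, with narrow gaps. From 2 to 28 months Foxo4 fell by 0.35 on the log2 scale (SE 0.0778, 0.783-fold, adjusted p = 0.0103), and by 0.37 over libraries 1 and 2. When each library was rescaled to the same sum the value was -0.31 and the call was lost (adjusted p = 0.540). At 20 months the difference was -0.20 (SE 0.0778, adjusted p = 0.0949).

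Per kilobase of transcript, Foxo4 was the most abundant of the 3 factors at each age, at 2595 ± 178 normalized counts per kb at 2 months against 211 ± 12.8 for Foxo1 and 77.3 ± 19.4 for Foxo3 (SD, n = 3). Of the summed FoxO level per kb, Foxo4 made up 89.6, 90.1 and 90.3% in the 2-month libraries, 76.6, 81.0 and 78.4% at 20 months, and 79.0, 82.5 and 80.9% at 28 months. The share of Foxo1 was 7.17, 7.40 and 7.44% at 2 months and 17.7, 14.2 and 16.6% at 20 months. At 28 months it was 15.7, 13.4 and 14.1%. The 2-month libraries thus lay apart from the 6 older ones in the makeup of FoxO transcripts, and 20 and 28 months overlapped.

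Ddit4 (REDD1) codes for a stress-induced inhibitor that acts through the TSC complex on mTORC1, and its gene responds to glucocorticoids and energy stress. Its mean was lowest at 28 months, whereas those of Fbxo32, Trim63, Fbxo30 and Cblb were lowest at 2 months. The means of Fbxo31 ran in the same order as those of Ddit4, without a call. The normalized counts were 1266, 1271 and 811 at 2 months, 2120.3, 2058 and 1715 at 20 months, and 474, 735 and 504 at 28 months. The ages did not overlap, with 20 months highest and 28 months lowest.

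The mean of Ddit4 was 1116 ± 264 (SD, n = 3) at 2 months, 1965 ± 218 at 20 months and 571 ± 143 at 28 months. It rose by 0.84 on the log2 scale to 20 months (SE 0.189, 1.79-fold, adjusted p = 0.0103), a call lost without the 20-month library 1 (adjusted p = 0.0507), and the rise was 0.72 over libraries 1 and 2. From 20 to 28 months it fell by 1.80 (SE 0.189, 0.287-fold, adjusted p = 0.000713), which ranked 7 of 13178 genes by p. The fall was 1.82 over libraries 1 and 2, and the call held under all 21 alternatives. Against 2 months the 28-month level was 0.513-fold (log2 -0.96, SE 0.189, adjusted p = 0.00546), and this call too held under all 21, with a log2 difference of -1.10 over libraries 1 and 2.

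Sesn1 codes for a sestrin, which restrains mTORC1 when leucine is scarce. Its normalized counts were 2164, 1392 and 1799 at 2 months, 2120.3, 1971 and 2189 at 20 months, and 1345, 1798 and 1608 at 28 months. The 2-month range spanned most of both others, and the 20-month libraries lay above the 28-month ones. The log2 difference was 0.25 at 20 months (95% confidence interval -0.06 to 0.56, adjusted p = 0.258) and -0.16 at 28 months (-0.47 to 0.15, adjusted p = 0.512). These estimates turned on single libraries, with 0.40 and -0.0090 without the 2-month library 1, 0.084 and -0.33 without the 2-month library 2, and, at 28 months, -0.047 and -0.26 without the 28-month libraries 1 and 2. From 20 to 28 months it was -0.41 (SE 0.145, adjusted p = 0.325).

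Ordered by normalized count per kb at 2 months, the genes were Trim63 (4380 ± 1108, SD, n = 3), Foxo4, Fbxo32 (2212 ± 1001), Fbxo31 (1992 ± 228), Ddit4 (662 ± 157), Sesn1 (561 ± 121), Foxo1, Fbxo30 (158 ± 6.98), Cblb (99.3 ± 3.53) and Foxo3. The libraries of the neighbours Foxo4 and Fbxo32, Fbxo32 and Fbxo31, Ddit4 and Sesn1, and Cblb and Foxo3 overlapped at this age. At 20 months Fbxo32 stood second at 4761 ± 309.8 per kb, clear of Fbxo31 below it, and Trim63 stood at 7439 ± 901. At 28 months Ddit4 had dropped below Sesn1 and Foxo1, to 339 ± 84.6 per kb, and overlapped Foxo1. Over all 9 libraries Trim63 stood at the 97.7th percentile of 12324 genes per kb and Fbxo32 at the 95.8th, while Foxo3 stood at the 43.4th.

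The genes lie on 7 chromosomes, with 4 of the 10 on chromosome 10. There Sesn1 (chr10:41810574-41908436, plus strand) and Foxo3 (chr10:42181845-42276695, minus strand) are 273 kb apart (GRCm38). Sesn1 was not called in any comparison, whereas Foxo3 was called at both older ages.

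By the rule of the highest Pearson r of the log2 level over the 9 libraries, which share depth and scaling, the genes most like Fbxo32 were Atp2c1 (r = 0.978), Bach1 (0.975) and Sertad2 (0.973). For Trim63 they were Pnrc1 (0.990), Bach1 (0.981) and Atp2c1 (0.980), so that 2 of the 3 were shared with Fbxo32. Amph, Wipi1 and Fnip1 were most like Foxo1 (0.982, 0.979 and 0.976), and Rilpl1, Gucd1 and Zfp9 most like Ddit4 (0.973, 0.947 and 0.946). These are descriptions chosen from 13178 genes. Bach1 rose from 1288 ± 236 normalized counts (SD, n = 3) at 2 months to 1973 ± 187 at 20 months and stood at 1614 ± 57.8 at 28 months.

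Other ligases of muscle showed the 20-month rise in part. Over all genes 9.42% rose and 7.13% fell by 20 months, 7.53% and 6.24% by 28 months, and 0.212% and 0.167% between the older ages. Of 20 such genes tested, 4 rose and 1 fell by 20 months, and 2 rose and 0 fell by 28 months, with a median log2 difference of 0.15 and 0.10 against -0.02 and -0.01 over all genes. Ubr4, a ligase of the N-degron pathway, rose by 0.79 (SE 0.0924, adjusted p = 0.000172) at 20 months and by 0.55 at 28 months. Fbxo40, a muscle F-box gene whose product targets IRS1, rose by 0.60 and 0.43. Fbxo21 rose by 0.44 at 20 months, and Fbxl22, an F-box gene of the sarcomere, fell by 1.18 (SE 0.230, adjusted p = 0.00466). In no ligase of the list did the level differ between 20 and 28 months at an adjusted p under 0.05.

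Among 18 other FoxO targets, 6 rose and 2 fell at each older age against 2 months, where 9.42% of all genes rose and 7.13% fell by 20 months and 7.53% and 6.24% by 28 months. Pdk4, the kinase that shuts pyruvate out of the mitochondrion in fasting, rose 6.35-fold at 20 months (log2 2.67, SE 0.339, adjusted p = 0.000288) and was 1.00 above 2 months on the log2 scale at 28 months (adjusted p = 0.0702). Its mean was 32248 ± 11499 normalized counts (SD, n = 3) at 20 months and 10413 ± 5362 at 28 months, a log2 difference of -1.67 that did not pass (SE 0.339, adjusted p = 0.0655). Gabarapl1, which builds autophagosomes, rose by 0.98 and 0.75, Irs2 by 0.80 and Cat, the gene of catalase, by 0.71 at 20 months. Cdkn1b, a cell-cycle inhibitor, fell by 0.76 and by 1.00, although it is listed as a gene that FoxO induces, and Ctsl, a lysosomal protease, fell by 0.41 and 0.32.

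Gadd45a, a stress gene induced in denervated muscle, was the only FoxO target on the list called between 20 and 28 months, when 0.379% of all genes were, although the estimate for Pdk4 was larger. Its mean was 1114 ± 181 normalized counts (SD, n = 3) at 2 months, 1052 ± 145 at 20 months and 2643 ± 150.3 at 28 months, a log2 rise of 1.33 between the older ages (SE 0.124, adjusted p = 0.000320). Sesn3, a sestrin gene related to Sesn1, rose by 0.80 (adjusted p = 0.0155) and Cdkn1a by 0.69 (adjusted p = 0.0261) from 2 to 28 months.

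In the insulin and AKT arm above FoxO, 4 of 16 genes rose and 3 fell by 20 months (background 9.42% and 7.13%), and 2 rose and 3 fell by 28 months (7.53% and 6.24%). The 3 that fell were the same at both ages. Igf1, the growth factor, fell by 1.48 (SE 0.157, 0.359-fold, adjusted p = 8.73e-05) and by 1.09. Irs1, the receptor's adaptor, fell by 0.79 and 0.63, and Sgk1, a kinase related to AKT, fell by 0.53 and 0.83. Irs2 rose at 20 months, and Pik3cb and Phlpp1 rose by 0.41 to 0.44 at both ages.

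In the mTORC1 arm, 4 of 25 genes rose and 2 fell by 20 months (background 9.42% and 7.13%), and 3 rose and 2 fell by 28 months (7.53% and 6.24%), counts near those background shares. Mtor, the kinase itself, rose by 0.63 (SE 0.0781, adjusted p = 0.000239) and 0.53, and Tsc2, of the complex through which Ddit4 acts, by 0.43 and 0.35. Ddit4l (REDD2), the close relative of Ddit4, fell by 0.43 at 20 months (SE 0.0846, adjusted p = 0.00495), when Ddit4 rose, and by 0.39 at 28 months. Lamtor4, of the lysosomal scaffold of mTORC1, fell by 0.58 and 0.54.

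Of 12 glucocorticoid-responsive genes, 3 rose and 1 fell by 20 months (background 9.42% and 7.13%), 0 rose and 2 fell by 28 months (7.53% and 6.24%), and 1 fell between the older ages (0.167%). That gene was Per1, a clock gene that glucocorticoids induce. Its mean was 1452 ± 56.9 normalized counts (SD, n = 3) at 2 months, 2839 ± 156 at 20 months and 1459 ± 133 at 28 months. It rose by 0.97 (SE 0.0879, adjusted p = 3.59e-05) and then fell by 0.96 (adjusted p = 0.000320), so that Per1 and Ddit4 were both highest at 20 months. Zbtb16 rose by 0.83 and Klf15, a transcription factor that also induces Fbxo32 and Trim63, by 0.43 at 20 months. Sgk1, counted in this list too, was the gene that fell by 20 months (by 0.53) and 1 of the 2 that fell by 28 months (by 0.83). The hour at which the mice were killed is not given in the sources used here.

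Of 12 genes of the denervation response, 7 rose by 20 months (background 9.42%) and 11 by 28 months (7.53%), and none fell (median log2 difference 0.71 and 1.18). Runx1 rose by 1.32 (SE 0.292, adjusted p = 0.00971) and 2.76 (SE 0.292, adjusted p = 9.50e-05), and Dach2 by 1.66 and 1.41. Myog, the muscle regulator that drives Fbxo32 and Trim63 in denervated muscle, had 239 ± 61.2 normalized counts (SD, n = 3) at 2 months, 199.8 ± 53.5 at 20 months and 483 ± 126 at 28 months, a log2 rise of 1.26 between the older ages (SE 0.242, adjusted p = 0.0473).

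**Figure D3:**
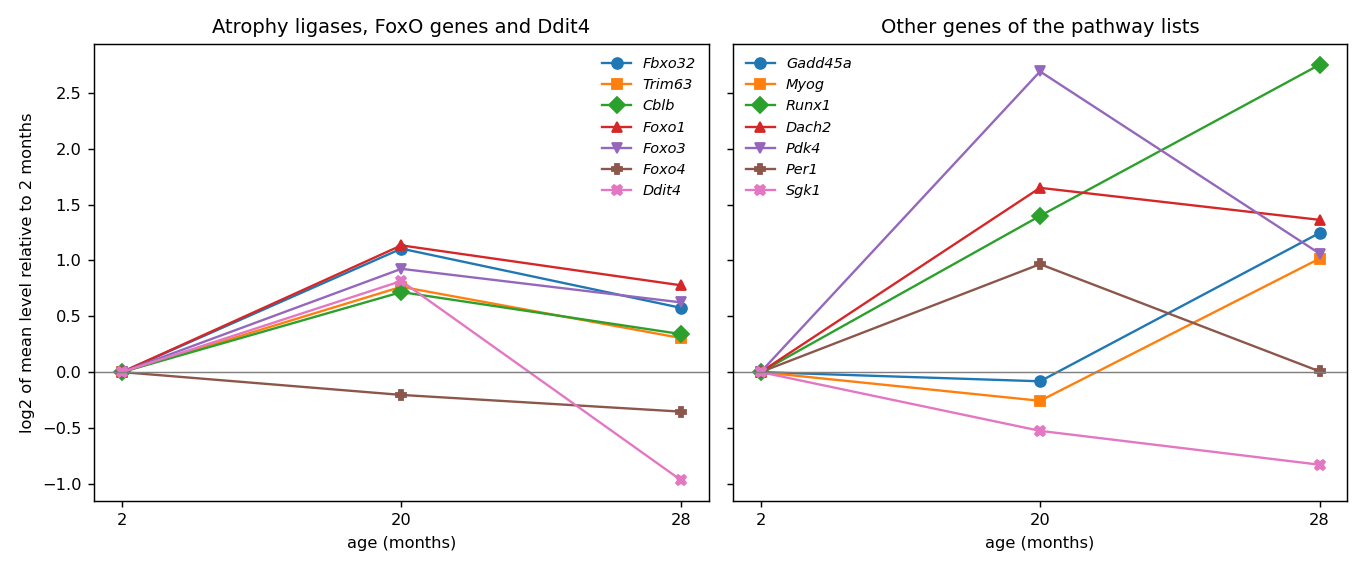
Log2 of the mean normalized count relative to 2 months (y axis) at each age (x axis, not to scale in time), for 7 of the 10 genes (left) and 7 genes of the pathway lists (right). Lines join the means of 3 libraries and carry no error bars. Fbxo32, Trim63, Cblb, Foxo1, Foxo3, Ddit4, Pdk4 and Per1 are highest at 20 months, whereas Gadd45a, Myog and Runx1 are highest at 28 months.

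Slow fibre markers moved with the comparisons against 2 months, where 9.42% of all genes rose and 7.13% fell by 20 months and 7.53% and 6.24% by 28 months. All 7 slow fibre markers rose by 20 and by 28 months (median log2 difference 2.65 and 2.74), and their summed normalized count was 12890 to 115123 at 2 months, 163266 to 289784 at 20 months and 202374 to 255812 at 28 months. None of the 7 was called between 20 and 28 months. Of 9 fast fibre genes 1 rose and 2 fell by 20 months and 1 rose and 3 fell by 28 months, with sums of 5735756 to 6651716 at 2 months, 5409123 to 6280777 at 20 months and 4967748 to 5196838 at 28 months. Of 8 skeletal muscle markers 3 rose by 20 months, and 2 rose and 1 fell by 28 months. Of 5 fibroblast genes 3 fell at both older ages, with sums of 50146 to 104713 at 2 months, 21035 to 23795 at 20 months and 20862 to 28378 at 28 months. Of 7 adipocyte genes 4 fell by 20 months (median log2 difference -1.50) and 1 by 28 months (-0.85), with sums of 7432 to 11287 at 2 months, 4878 to 5420 at 20 months and 4710 to 6932 at 28 months. Of 6 macrophage genes 1 fell by 20 months and 0 by 28 months, and of 5 endothelial genes none was called in any comparison. Within the 2-month group the slow fibre sum was lowest in library 1, at 12890, and highest in library 2, whereas Fbxo32 was highest in library 1. The part of fibre type, fat and connective tissue in the changes of the 10 genes was not tested.

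MBD-seq reads around the starts of the 10 genes put 3 starts above the median of tested genes in 2-month muscle, Foxo4 at the 98.4th percentile, Trim63 at the 88.3rd and the downstream start of Sesn1 at the 64.0th. The level used is the mean normalized count of the 5 bins of 500 bp within 1000 bases of the start, each age being 1 pool, so that no test between ages was possible and the intervals below cover counting error only. They treat each count as independent and are too narrow where both ends of a fragment, or 1 read in adjoining bins, were counted. Sesn1 has starts far apart and counted as 2, which gave 11 starts. Their median in muscle was 2.73, 2.69 and 5.23 at 2, 20 and 28 months, below the median of 11887 tested genes at each age (7.10, 6.74 and 9.08). The rise at 28 months was shared, as the lower quartile of all tested genes was 2.91, 2.86 and 5.90. Of these genes 64.4% lay higher at 28 than at 2 months. Bins with 0 reads made up 12.1, 10.3 and 0.640% of all bins in muscle.

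Foxo4 had the highest level. In muscle it was 47.1 (95% Poisson interval 41.6 to 53.2, 259 reads) at 2 months, 33.2 (28.7 to 38.1, 197 reads) at 20 months and 19.6 (16.7 to 23.0, 154 reads) at 28 months. In T cells the 2-month pool was the lowest, with 47.9 (42.0 to 54.4) at 2 months, 65.5 (57.9 to 73.8) at 20 months and 63.4 (55.7 to 72.0) at 28 months, and scaling the libraries to equal sums gave 40.9, 45.6 and 43.2. Genes on the X chromosome had high levels as a class in these females, with a median of 28.7, 22.9 and 15.8 in muscle over 401 genes, and Foxo4 stood at percentiles 90.5, 82.5 and 77.1 among them. The decline of Foxo4 in muscle thus ran beside that of the X chromosome median, while its percentile among these genes also fell. The fall was not confined to the X chromosome, as the mean over all bins in muscle was 24.0, 22.2 and 17.6.

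Trim63, whose promoter is printed above, was at 22.4 (18.6 to 26.7, 123 reads) in 2-month muscle, 11.3 (8.74 to 14.3, 67 reads) at 20 months and 14.4 (11.9 to 17.3, 113 reads) at 28 months. In T cells it was 35.9, 54.3 and 64.5 at the 3 ages. The level in muscle was lowest at 20 months, when the Trim63 transcript was highest, but with 3 ages and 1 pool each no relation between them can be tested. Muscle stood below T cells at each age on this scale, but after rescaling to the same sum the 2-month values were 30.9 in muscle and 30.7 in T cells.

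Within 1000 bases of the start, Foxo1, Foxo3 and Ddit4 had little captured DNA in muscle. Foxo3 had 0 reads in 2-month muscle, which allows a normalized count of up to 0.671 per bin by the exact interval, and 2.19 and 1.66 at 20 and 28 months. Its promoter is shown as the contrast to that of Trim63. The 250 bases before the start (RefSeq, GRCm38.p6, chr10:42276696-42276945, minus strand) hold 31 CpG dinucleotides, in capitals, more than or as many as 95.4% of promoters.
Foxo3, 250 bases before the start: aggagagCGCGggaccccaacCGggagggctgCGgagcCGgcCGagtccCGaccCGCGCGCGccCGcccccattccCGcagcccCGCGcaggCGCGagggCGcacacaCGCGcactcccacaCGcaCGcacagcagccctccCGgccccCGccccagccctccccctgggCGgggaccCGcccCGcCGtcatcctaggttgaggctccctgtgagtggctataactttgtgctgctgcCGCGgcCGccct
Of the 9 promoters found for 8 of the genes, Trim63 had the fewest CpG dinucleotides, and the other counts ran from 14 in Cblb to 40 in Fbxo30, whose window in the table precedes a start downstream of the one used for MBD-seq. Foxo1 was at 2.91, 2.86 and 2.93 in muscle and Ddit4 at 1.64, 1.18 and 2.68. All 3 were under the median of tested genes in muscle at each age. Within 2000 bases of the start the muscle levels were higher, at 11.02, 9.92 and 7.79 for Foxo1, 10.2, 9.64 and 6.73 for Foxo3 and 3.13, 3.84 and 4.82 for Ddit4, where the medians of tested genes were 12.4, 11.9 and 12.8. Fbxo32 was at 2.73, 2.69 and 4.46 in muscle.

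**Figure D4:**
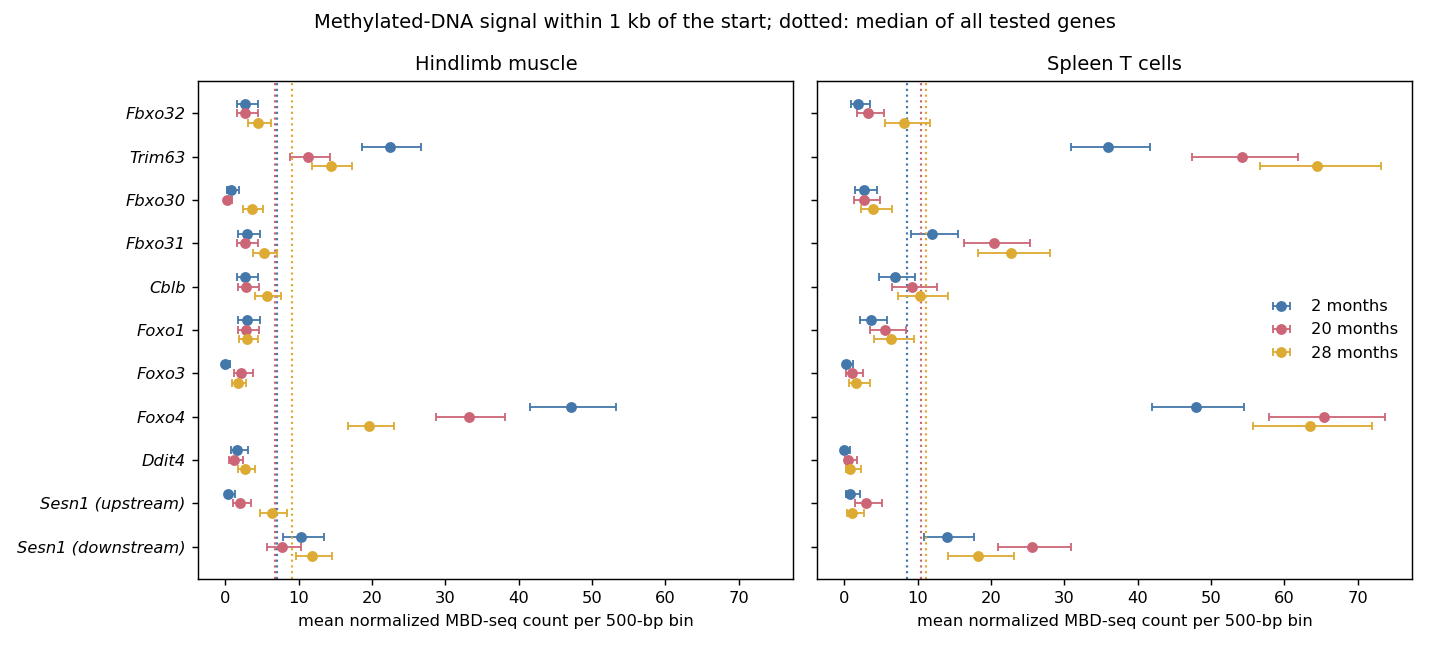
Mean normalized MBD-seq count per 500-bp bin within 1000 bases of the start (x axis) for the 11 starts (y axis) in muscle (left) and T cells (right), at 2, 20 and 28 months (colours). Bars are exact 95% Poisson intervals of the counts, and dotted lines the medians of 11887 tested genes. Foxo4, Trim63 and the downstream start of Sesn1 lie to the right of the dotted line of each age in both tissues, and in T cells Fbxo31 also does.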

How the data were processed

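RNA was measured by poly-A RNA-seq in 9 muscle libraries and methylated DNA by MBD-seq in 3 muscle and 3 T-cell pools. The deposited values of both tables are a signal, read counts that the authors divided by 1 DESeq2 size factor per library. Per the methods, reads were trimmed with Trim Galore, aligned to mm10 with Hisat2 (RNA) or Bowtie2 (MBD-seq) and counted per refSeq gene with htseq-count or per 500-bp bin with bedtools, while the submitters' processing notes name TopHat. Strand was not stated for the counting, so reads of antisense partners cannot be told apart. The muscle MBD-seq columns do not name the round of capture. In each library every value was a whole number of reads times a constant (100% within 0.001 reads), so that reads could be recovered.

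log2 of the value plus 1 was fitted for 13178 genes (mean at least 10) with limma 3.58.1 (R 4.3.3, limma-trend, age only, all 9 libraries) and Benjamini-Hochberg adjustment over all genes. On recovered reads, DESeq2 1.42.0 and edgeR 4.0.16 served as alternatives. The fit was tested on simulated data. The 5 summary rows (37.9 to 47.7% of the records per library) were left out. The labels do not say whether equal replicate numbers mark a pairing or a batch, and the main fit held no term for them. Deviations of equally numbered libraries from their age mean all had r above 0.1 for number 3 alone (0.109, 0.150 and 0.161). The libraries numbered 3 thus shared part of their deviation. The genes and lists were chosen with earlier results of these data known. Named genes are the 10, up to 4 called and non-overlapping genes per list, direction and comparison, and the 3 most like Fbxo32, Trim63, Foxo1 and Ddit4, except 1 counted gene whose values are not reported here. Gene positions, transcript lengths and promoters are from RefSeq. MBD-seq counts summed over bins were 135254786 to 200456498 per library. The reads were paired-end, and whether both ends of a fragment or reads across a bin border were counted more than once is not given in the sources used here, so these sums are not numbers of fragments.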

Additional observations from a re-analysis of the deposited data

How the results depend on the processing

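Of 630 values of the 10 genes under 21 alternatives, 592 kept direction and side of the threshold, 19 lost and 15 gained a call, and 4 changed sign: Fbxo31 from 2 to 28 months (0.038 without the 2-month library 2, 0.050 without the 28-month library 3, range with a library left out -0.13 to 0.050) and Fbxo30 from 20 to 28 months (-0.050 without the libraries numbered 3, -0.030 without the 28-month library 3, range with a library left out -0.030 to 0.12), with the cause not tested. From 2 to 20 months, where 7 of the 10 were called, the count was 5 to 7 when a library was left out (5 without the 20-month library 1) and 2 under a fold over 2 with an unadjusted p under 0.05. From 2 to 28 months, where 5 of the 10 were called, the count was 3 to 6 with a library left out (3 without the 2-month library 3 or the 28-month library 1, both times without Fbxo30 and Foxo3, and 4 without the 28-month library 3, with Cblb in and those 2 out), 3 after rescaling to the same sum (Ddit4, Foxo1 and Fbxo32), 3 without the libraries numbered 3 (Ddit4, Foxo1 and Foxo4), and 0 with the fold rule. With the replicate number as a block, 9, 8 and 2 genes were called in the 3 comparisons and 3000, 2529 and 138 of all genes, with Fbxo32, Trim63 and Cblb gained from 2 to 28 months (adjusted p = 0.0218, 0.0295 and 0.0252), Fbxo31 and Foxo4 from 2 to 20 months (0.0406 and 0.0389) and Trim63 from 20 to 28 months (0.0430). From 20 to 28 months 2 of the 10 were called with the 2 ages alone (Ddit4 and Fbxo32).

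Over all genes, the 2181 calls from 2 to 20 months became 586 on rescaling, 1117 without the libraries numbered 3, 681 with the fold rule and 1081 to 2310 with a library left out. The 1814 calls from 2 to 28 months became 554, 716, 677 and 963 to 1913. The 50 from 20 to 28 months became 24, 11, 172 and 14 to 89, 103 with a term for the libraries numbered 3, 76 with the 2 ages alone and 228 with DESeq2.

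The median promoter level at 2, 20 and 28 months turned from 2.73, 2.69 and 5.23 in muscle to 8.29, 7.30 and 8.002 within 2000 bases. In the single bin of the start it was 0 at 2 months and 1.91 at 28 months, and rescaling gave 9.83 at 28 months. In T cells it was 9.81, 16.5 and 15.9 within 2000 bases and 0 at each age in the single bin.

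With 3 mice per age the 20-month intervals of Fbxo31 and Sesn1 still allow changes of about the size called for Fbxo30. Values of MBD-seq rest on 1 pool per age.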

Other observations

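Over whole genes, the MBD-seq level differed from that at the starts. Fbxo31, at 2.91 around its start in 2-month muscle, had a mean normalized count of 56.7, 42.4 and 28.8 per bin over its body at 2, 20 and 28 months in muscle, and 77.8, 94.5 and 111 in T cells. Foxo3, with 0 reads around its start at 2 months, stood at 37.3, 29.7 and 25.1 over its body in muscle and 44.5, 56.6 and 62.5 in T cells. The body of Ddit4, the shortest of the 10 genes, was at 4.91, 2.86 and 3.44 in muscle. Over all bins the mean was 24.0, 22.2 and 17.6 in muscle and 38.8, 47.6 and 48.6 in T cells at 2, 20 and 28 months. The bodies of Fbxo31 and Foxo3 thus moved in the direction of all bins in both tissues. Each value is 1 pool.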
